A study of Mus musculus with 9 samples.

Results

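The genes described here are the mouse genes of the lysosomal cathepsins, of the lysosome-associated membrane proteins (LAMP) and of the vacuolar proton pump (V-ATPase) with its accessory proteins, measured by bulk RNA sequencing of nigral tissue. They were chosen by the form of their symbol in the GENCODE M21 annotation and number 47 of the 55450 annotated genes. This rule uses no measured values, although earlier results of these data were known. The set holds 8 cathepsins treated together as microglial (Ctsa, Ctsb, Ctsc, Ctsd, Ctsh, Ctsl, Ctss and Ctsz), 3 other lysosomal cathepsins (Ctsf, Ctsk and Ctso), 3 cathepsins known from leukocytes (Ctse, Ctsg and Ctsw) and 4 placental cathepsins (Ctsj, Ctsm, Ctsq and Ctsr). It further holds 4 Lamp genes, 9 genes of the membrane sector of the V-ATPase (V0), 13 of its cytosolic sector (V1), both accessory genes, and Atp6v1fnb, which is named after its neighbour Atp6v1f and is not a subunit gene. Of these genes, 38 passed the filter on low counts and were tested. The 9 others, namely Ctsg, the 4 placental cathepsins, Atp6v1b1, Atp6v1e2, Atp6v1g3 and Atp6v1fnb, had at most 7 counts in any library.

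Each group was sequenced in 3 libraries, named A, B and C, from manually dissected nigral tissue of saline-perfused male mice taken 5 weeks after lentiviral transduction. In the CTR group, CX3CR1-CreERT2 mice carried a Cre-inducible control vector, which the labels call GFP and the study's text describes as destabilized GFP. The CX3 group was the same mouse line with a Cre-inducible Synuclein-expressing vector, and the DAT group was DAT-Cre mice with that Synuclein-expressing vector. The CX3CR1 driver is active in microglia and other cells that express this receptor once tamoxifen is given, and the DAT driver in neurons that express the dopamine transporter. The methods describe tamoxifen for the CX3CR1-CreERT2 line, so that mouse line, tamoxifen and vector all differ between DAT and CTR, and mouse line, tamoxifen and the cells that express the transgene all differ between CX3 and DAT. The effects of these factors cannot be told apart. Both drivers sit in the gene they are named after, Cx3cr1 and Slc6a3. The transgene itself gave no check of the labels, since counts cover annotated mouse genes. The age at transduction is given as 8 weeks in one place of the study's text and that of the purchased mice as 9 weeks in another. The sources used here do not say whether the 3 libraries of a group came from separate animals, so p-values measure the spread between libraries, which may be technical.

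Lysosomes digest material delivered by endocytosis, phagocytosis and autophagy. The V-ATPase pumps protons into them, and the low pH activates the cathepsins, a family of proteases that includes cysteine proteases such as cathepsins B, L and S and the aspartic protease cathepsin D. The LAMP proteins line the lysosomal membrane. In brain, microglia express many cathepsins at a high level, whereas neurons also use the V-ATPase to fill synaptic vesicles with transmitter. Many lysosomal genes carry an E-box, the letters CACGTG, near their start, which factors of the MiT/TFE family such as TFEB bind, and many myeloid genes carry a site of the factor PU.1 with the core GAGGAAGT.

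RefSeq promoter windows on GRCm38.p6, 250 bases before to 50 bases after a gene's start, were found for 37 of the 47 genes (42 windows). On either strand the E-box stood in 9 of the 42 windows (21.4%) and in 7.15% of all 32851 windows. The longer form TCACGTGA, which overlaps the E-box, stood in 5 (11.9%) and in 0.974% of all windows. The PU.1 core GAGGAAGT stood in 2 (4.76%), those of Ctss and Ctsc, and in 3.2% of all windows. Atp6v0a2, Atp6v0d2, Atp6v1b2, Atp6v1c1, Atp6v1g1, Atp6v1h, Ctsb, Ctse, Ctsh and Ctsw had no window in this table. The windows are shown for Ctss and Ctsc, which were among the genes with the largest differences described below, and for Ctsd, Lamp1 and Atp6v0d1 as E-box examples of a cathepsin, a membrane protein and a pump subunit, each 5′ to 3′ from 250 bases before the start to 20 bases into the gene. Capitals mark E-boxes (CACGTG) and the PU.1 core, which reads ACTTCCTC on the opposite strand.
Ctss, chr3:95526536-95526805, + strand: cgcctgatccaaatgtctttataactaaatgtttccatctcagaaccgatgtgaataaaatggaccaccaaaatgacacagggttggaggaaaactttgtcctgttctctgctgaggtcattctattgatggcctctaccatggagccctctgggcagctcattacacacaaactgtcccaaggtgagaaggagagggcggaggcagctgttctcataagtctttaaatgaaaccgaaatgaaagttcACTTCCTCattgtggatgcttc
Ctsc, chr7:88277835-88278104, + strand: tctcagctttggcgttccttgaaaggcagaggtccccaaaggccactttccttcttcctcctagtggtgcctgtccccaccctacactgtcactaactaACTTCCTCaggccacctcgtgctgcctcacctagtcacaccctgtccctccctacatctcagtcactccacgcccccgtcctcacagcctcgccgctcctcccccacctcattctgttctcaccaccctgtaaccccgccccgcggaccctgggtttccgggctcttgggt
Ctsd, chr7:142387808-142388077, - strand: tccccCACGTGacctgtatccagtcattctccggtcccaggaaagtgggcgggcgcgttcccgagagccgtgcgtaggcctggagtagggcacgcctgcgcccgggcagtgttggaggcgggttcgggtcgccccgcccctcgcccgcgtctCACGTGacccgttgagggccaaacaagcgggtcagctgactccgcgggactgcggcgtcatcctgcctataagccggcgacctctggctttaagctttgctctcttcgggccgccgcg
Lamp1, chr8:13158911-13159180, + strand: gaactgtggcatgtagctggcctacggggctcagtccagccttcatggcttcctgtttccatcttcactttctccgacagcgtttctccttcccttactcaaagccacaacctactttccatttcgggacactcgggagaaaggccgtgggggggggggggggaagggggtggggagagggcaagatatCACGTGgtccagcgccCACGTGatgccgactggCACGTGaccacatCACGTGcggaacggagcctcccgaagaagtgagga
Atp6v0d1, chr8:105566045-105566314, - strand: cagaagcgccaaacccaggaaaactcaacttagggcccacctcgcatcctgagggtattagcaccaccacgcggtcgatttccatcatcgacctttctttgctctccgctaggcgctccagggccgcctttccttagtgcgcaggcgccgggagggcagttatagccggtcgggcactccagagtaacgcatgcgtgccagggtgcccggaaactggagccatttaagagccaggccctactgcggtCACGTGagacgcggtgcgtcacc
In Ctss the PU.1 core begins 2 bases before the start and in Ctsc 151 bases before it. In Ctsd the E-boxes begin 245 and 98 bases before the start, Lamp1 holds 4 of them within the last 61 bases, and in Atp6v0d1 the E-box begins 3 bases before the start. A match of letters is a description of the window and was not tested as a binding site.

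Reads counted on genes ranged from 21592817 to 39475428 per library, and 3 counts equalled 0.0779 to 0.151 CPM (counts per 1000000 reads after TMM scaling). Between libraries of a group, the squared difference in counts over 16878 genes was 1.48 to 1.87 times that of random sampling in CTR. It was 2.75 between CX3 B and CX3 C but 5.38 and 7.57 for pairs with CX3 A, and 2.17 between DAT A and DAT C but 17.7 and 12.6 for pairs with DAT B, so CX3 A and DAT B stood apart from their groups. Between groups it was 40.7 to 201. The markers of dopaminergic neurons (6 genes, Th and Slc6a3 among them) were present in every library, summing to 835 to 843 CPM in CTR, 1017 to 1034 in CX3 and 645 to 661 in DAT. Markers from outside the nigra also differed between the groups. Pituitary hormone genes (5 genes, Gh and Prl among them) summed to 61.1 to 63.8 CPM in CTR, 5.89 to 6.1 in CX3 and 18.3 to 23.5 in DAT, and choroid plexus genes (5 genes, Ttr among them) to 33.5 to 36.2, 1462 to 1572 and 862 to 1032. The part of these tissues in the results below was not tested. Genes were called at an adjusted p under 0.05 (edgeR's quasi-likelihood test, Benjamini-Hochberg over 20892 genes), and a second call asked for a difference beyond a fold of 1.2. A further test between CX3 and DAT compared the 2 Synuclein groups directly, since both differences from CTR share the same control libraries. Of all genes called, 45.9% were higher in CX3 than in CTR, 53.4% higher in DAT than in CTR and 46.8% higher in CX3 than in DAT, and with scaling by library size alone 58.9%, 37.8% and 66.7%. That scaling moved the median of all genes to -0.15 on the log2 scale in DAT against CTR and to 0.20 in CX3 against DAT.

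Most microglial cathepsins were lower in both Synuclein groups than in CTR, with the larger median difference in DAT. In DAT against CTR all 8 were called lower, with a median log2 fold change of -1.02, where 27.9% of all genes tested were called lower and 32% higher. Beyond a fold of 1.2, 6 of the 8 were lower, where 18.9% of all genes were lower and 20.5% higher. In CX3 against CTR 6 of the 8 were lower (16.5% of all genes), Ctsc was called higher (14% of all genes) and Ctsh was not called, with a median of -0.36. Beyond a fold of 1.2, 3 of the 8, namely Ctsa, Ctsb and Ctsd, were lower in CX3 (5.28% of all genes) and none higher (3.16% of all genes). The median over all genes tested was near 0 in each comparison (-0.0033 for CX3 against CTR, -0.0038 for DAT against CTR and 0.01 for CX3 against DAT). The summed level of the 8 genes was 3161 to 3231 CPM in CTR, 2255 to 2317 in CX3 and 1856 to 2098 in DAT. Without CX3 A and DAT B, a setting chosen after seeing the data, 7 of the 8 were lower and 1 higher in CX3 than in CTR, 8 were lower in DAT, and 6 were higher and 2 lower in CX3 than in DAT. That fit called 42.7% of all genes in CX3 against CTR, 66% in DAT against CTR and 62.9% in CX3 against DAT. The main fit called 30.5%, 59.9% and 58.9%. In bulk tissue, fewer cells of a type and less RNA per cell cannot be told apart.

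Ctss encodes cathepsin S, a protease of microglia and other antigen-presenting cells that trims the MHC class II invariant chain (ENSMUSG00000038642.10, chromosome 3 from 95526786 to 95556403). It had 780.4, 777 and 755 CPM in the CTR libraries, 596, 587 and 566 in the CX3 libraries and 252, 316 and 250.5 in the DAT libraries. The groups did not overlap, and Ctss was 2.82-fold lower in DAT than in CTR (log2 fold change -1.50 ± 0.07, here and below ± SE with n = 3 libraries per group, edgeR adjusted p = 4.97e-10) and 1.32-fold lower in CX3 (-0.40 ± 0.07, edgeR adjusted p = 0.000617). Ctsc encodes cathepsin C, which activates the serine proteases of granules (ENSMUSG00000030560.17, chromosome 7 from 88278085 to 88310888). It had 66.5, 64.8 and 63.2 CPM in the CTR libraries, 68.4, 72.9 and 74.2 in the CX3 libraries and 28.9, 29.8 and 26.3 in the DAT libraries. In DAT it was 2.29-fold lower than in CTR (edgeR adjusted p = 4.93e-10), while in CX3 it was 1.11-fold higher (edgeR adjusted p = 0.0476), a call close to the threshold that was lost when CTR A, CTR B, CTR C, CX3 B, CX3 C or DAT A was left out (edgeR adjusted p = 0.0515 to 0.174). Ctsh, an aminopeptidase, had 73.9, 76.7 and 71.1 CPM in the CTR libraries, 69.5, 67.3 and 71.3 in the CX3 libraries and 33.2, 39.3 and 33.4 in the DAT libraries. It was 2.1-fold lower in DAT than in CTR, whereas CX3 and CTR overlapped (log2 fold change -0.09 ± 0.06). Ctsz, a carboxypeptidase of myeloid cells, had 171, 170.4 and 161 CPM in the CTR libraries, 146, 139.6 and 137 in the CX3 libraries and 80.4, 89.02 and 80.1 in the DAT libraries. All CX3 libraries lay below all CTR libraries and all DAT libraries below both, with log2 fold changes of -0.25 ± 0.05 in CX3 and -1.01 ± 0.05 in DAT against CTR.

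**Figure D1:**
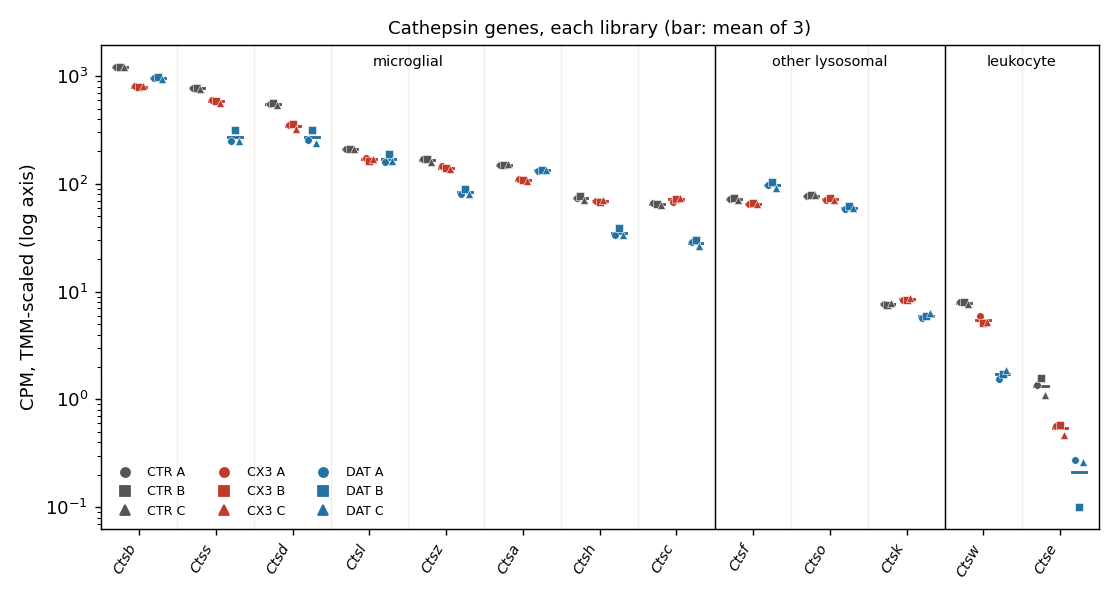
Level of 13 tested cathepsin genes in each of the 9 libraries, in CPM on a log axis, with circles, squares and triangles for libraries A, B and C and a bar for the mean of 3. Ctss, Ctsz, Ctsh and Ctsc lie lowest in DAT, whereas Ctsb and Ctsa lie lowest in CX3 and Ctsf highest in DAT.

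Ctsd and Ctsb, proteases of nearly all cells, had log2 fold changes in CX3 below that of Ctss, a difference between genes that was not tested. Ctsd, the aspartic protease cathepsin D (ENSMUSG00000007891.16, chromosome 7 from 142375911 to 142388038), had 556, 567 and 537 CPM in the CTR libraries, 349.7, 359 and 320.4 in the CX3 libraries and 255, 316 and 239.5 in the DAT libraries. It was 1.61-fold lower in CX3 (log2 fold change -0.69 ± 0.08, edgeR adjusted p = 1.93e-05) and 2.05-fold lower in DAT (-1.04 ± 0.08, edgeR adjusted p = 7.23e-08), and it shares 34.4% of its exon bases with the gene model Gm49369 on the same strand, so reads in these bases may not be counted on it. Ctsb, cathepsin B (ENSMUSG00000021939.8, chromosome 14 from 63122462 to 63145923), shares 12.8% of its exon bases with Fdft1 on the opposite strand. It had 1223, 1215 and 1207 CPM in the CTR libraries, 801, 786 and 810.1 in the CX3 libraries and 966, 984 and 930.3 in the DAT libraries. Here the order was different, with CX3 lowest, DAT between and CTR highest, at log2 fold changes of -0.60 ± 0.04 in CX3 and -0.34 ± 0.04 in DAT. Ctsa, the carboxypeptidase that protects lysosomal beta-galactosidase and neuraminidase, followed the same order with 149.5, 149.7 and 154 CPM in the CTR libraries, 111, 109 and 106 in the CX3 libraries and 132, 134 and 134 in the DAT libraries. The difference of Ctsa in DAT (-0.18 ± 0.04) was not called in the counts of either strand alone (-0.03 on each), and 10.5% of its exon bases lie opposite Pltp. Ctsl, cathepsin L, had 211, 211 and 213 CPM in the CTR libraries, 175, 163 and 170.0 in the CX3 libraries and 159, 190.5 and 162 in the DAT libraries. All CX3 and DAT libraries lay below CTR (-0.32 in CX3 and -0.31 in DAT). It shares 26.8% of its exon bases with Gm47123 on the opposite strand.

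The direct comparison of CX3 with DAT divided the microglial cathepsins. Ctsc, Ctss, Ctsh, Ctsz and Ctsd were higher in CX3 than in DAT (27.6% of all genes were called higher), 4 of them beyond a fold of 1.2 (17.8% of all genes), with log2 fold changes from 0.35 for Ctsd to 1.34 for Ctsc. Ctsb and Ctsa were lower in CX3 than in DAT (-0.27 ± 0.04 and -0.29 ± 0.04, where 31.3% of all genes were called lower), neither beyond a fold of 1.2 (20.4% of all genes). Ctsl was not called (-0.01 ± 0.06), but it was called higher in CX3 at 0.09 without DAT B (edgeR adjusted p = 0.0462) and at 0.19 with scaling by library size alone. A quantity free of that scaling is the share of Ctss in the summed level per kilobase of exon of Ctss and Ctsb. It was 73.6 to 74% in CTR, 75.7 to 76.9% in CX3 and 53.8 to 58.9% in DAT. Per kilobase Ctss therefore held the larger share of the pair in every library, and the DAT libraries lay apart from both other groups. That ranking rests on the annotated exon lengths (1358 bases for Ctss and 6051 for Ctsb), since Ctsb had the higher CPM in every library. Among all 8 genes, on the same scale per kilobase, Ctss made up 46.7 to 47% of the sum in CTR, 48.5 to 48.8% in CX3 and 32.4 to 35.1% in DAT, while Ctsb made up 16.4 to 16.8%, 14.6 to 15.6% and 24.5 to 27.8%.

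Most markers of microglia were lower beside these genes in both groups, while all 6 astrocyte markers were lower in CX3 and 3 in DAT. Of 10 microglia markers, 7 were lower in CX3 than in CTR (16.5% of all genes) and none higher, and in DAT 9 were lower (27.9% of all genes) and 1, Fcrls, higher. Their summed level was 833 to 842 CPM in CTR, 562 to 569 in CX3 and 529.6 to 546 in DAT, and no marker was at 0. The homeostatic marker Tmem119 had 79.3, 81.2 and 78.7 CPM in the CTR libraries, 56.99, 51.9 and 53.9 in the CX3 libraries and 46.95, 44.01 and 42.6 in the DAT libraries. It was lower in both groups, as was Trem2, the lipid receptor of phagocytes, with log2 fold changes of -0.65 in CX3 and -1.35 in DAT. Cx3cr1 was lower in CX3 than in CTR (-1.20), both groups carrying the driver in this gene, and its level in DAT, whose driver lies elsewhere, was also below CTR (-0.29). The 7 markers of macrophages and monocytes summed to 258 to 269 CPM in CTR, 296 to 305 in CX3 and 95.6 to 111 in DAT. Against CTR they divided, with 3 higher and 1 lower in CX3 (14% and 16.5% of all genes). In DAT 3 were higher and 4 lower (32% and 27.9% of all genes). The monocyte receptor gene Ccr2 had the highest log2 fold change of this list in CX3 against CTR (1.35 ± 0.11). Of 6 astrocyte markers, 6 were lower in CX3 than in CTR (16.5% of all genes). In DAT 3 were lower (27.9% of all genes) and 3 were not called. The median log2 fold changes were -0.62 in CX3, beside -0.55 for the microglia markers, and -0.13 in DAT, beside -0.73. The astrocyte markers summed to 5625 to 5640 CPM in CTR, 3329 to 3580 in CX3 and 3572 to 3873 in DAT, and none was at 0. The part of any of these cells in the cathepsin differences was not tested.

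**Figure D2:**
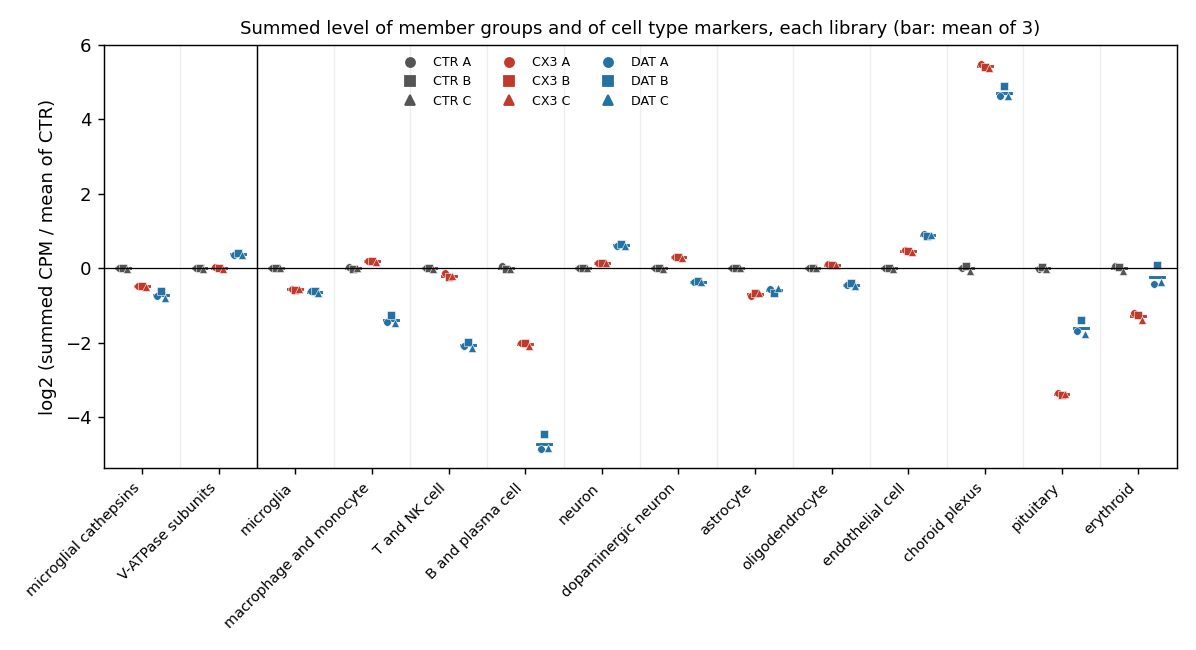
Summed CPM of the microglial cathepsins, of the V-ATPase subunits and of marker lists of 12 cell types, shown as the log2 ratio to the mean of the CTR libraries, for each of the 9 libraries (bar, mean of 3). The microglial cathepsins and the microglia markers lie below 0 in all CX3 and DAT libraries, the V-ATPase subunits and the neuron markers lie above 0 in all DAT libraries, and the lymphocyte markers lie lowest in DAT.

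The cathepsins known from leukocytes were highest in CTR and lowest in DAT. Ctsw, a protease of cytotoxic lymphocytes, had 7.98, 7.97 and 7.73 CPM in the CTR libraries, 5.89, 5.11 and 5.21 in the CX3 libraries and 1.56, 1.71 and 1.89 in the DAT libraries. It was 1.46-fold lower in CX3 and 4.64-fold lower in DAT than in CTR (edgeR adjusted p = 0.000593 and 1.71e-09), and 3.18-fold higher in CX3 than in DAT. Ctse, an aspartic protease of the endosomes of lymphoid and myeloid cells, had 41, 58 and 33 counts in CTR, 22, 20 and 18 in CX3 and 10, 2 and 6 in DAT. The groups did not overlap in CPM, and the summed counts gave a CTR level 5.99-fold that of DAT (95% interval 3.65 to 10.4) and 2.53-fold that of CX3 (1.85 to 3.5), with intervals that cover counting error only. The 8 markers of T and NK cells summed to 60.1 to 61.4 CPM in CTR, 51.6 to 55.4 in CX3 and 13.7 to 15.5 in DAT, with CTR above CX3 in every library. Of these 8 genes, 2 were called lower in CX3 than in CTR (16.5% of all genes) and 6 were not called. In DAT all 8 were lower than in CTR (27.9% of all genes). The 6 markers of B and plasma cells summed to 304 to 323, 73.2 to 78.0 and 10.8 to 14.1 CPM. Their part in the levels of Ctsw and Ctse was not tested.

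The other lysosomal cathepsins were not called in CX3 against CTR, and in DAT they divided. Ctsf, a cysteine protease with a cystatin-like prodomain, had 72.2, 73.5 and 71.1 CPM in the CTR libraries, 65.6, 66.6 and 64.5 in the CX3 libraries and 97.1, 105 and 92.4 in the DAT libraries. Unlike every microglial cathepsin it was higher in DAT than in CTR (0.44 ± 0.05, edgeR adjusted p = 3.8e-06), and it was lower in CX3 than in DAT (-0.58 ± 0.05). Ctso had 77.02, 78.01 and 78.6 CPM in the CTR libraries, 70.99, 74.3 and 70.8 in the CX3 libraries and 58.3, 62.8 and 59.9 in the DAT libraries, and Ctsk, the collagenase of osteoclasts, 7.65, 7.5 and 7.83 CPM in the CTR libraries, 8.34, 8.35 and 8.7 in the CX3 libraries and 5.73, 5.93 and 6.32 in the DAT libraries. Both were lower in DAT than in CTR (-0.37 and -0.36) and higher in CX3 than in DAT (0.26 and 0.50).

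The LAMP genes did not move together. Lamp1, a main glycoprotein of the lysosomal membrane (ENSMUSG00000031447.7, chromosome 8 from 13159161 to 13175338), shares 9.31% of its exon bases with Grtp1 on the opposite strand. It had 442, 447 and 442 CPM in the CTR libraries, 349, 346 and 359 in the CX3 libraries and 423, 442 and 439.6 in the DAT libraries. It was lower in CX3 than in CTR (-0.34 ± 0.04, edgeR adjusted p = 1.21e-05) and than in DAT (-0.31 ± 0.04), while DAT and CTR overlapped (-0.03 ± 0.04), although DAT was called lower with scaling by library size alone (-0.17) and with protein-coding genes alone (-0.15). Lamp2, which also takes part in chaperone-mediated autophagy (ENSMUSG00000016534.15, chromosome X from 38401357 to 38456454), had 246, 243 and 245 CPM in the CTR libraries, 224, 232 and 229 in the CX3 libraries and 169, 184 and 181 in the DAT libraries. In contrast to Lamp1 it was lowest in DAT, at -0.46 ± 0.04 against CTR (edgeR adjusted p = 4.18e-07), and the difference between CX3 and CTR (-0.10 ± 0.04) did not pass the threshold. Lamp5, a neuronal member found in the presynapse of GABAergic neurons (ENSMUSG00000027270.14, chromosome 2 from 136052239 to 136069917), had 10.1, 11.1 and 10.3 CPM in the CTR libraries, 17.5, 15.9 and 15.6 in the CX3 libraries and 25.4, 22.7 and 22.6 in the DAT libraries. It was 1.55-fold higher in CX3 and 2.25-fold higher in DAT than in CTR (edgeR adjusted p = 2.38e-05 and 9.76e-09) and lower in CX3 than in DAT (-0.54 ± 0.07), with no overlap of groups. Lamp3, of mature dendritic cells, reached at most 0.714 CPM in any library and was not called.

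**Figure D3:**
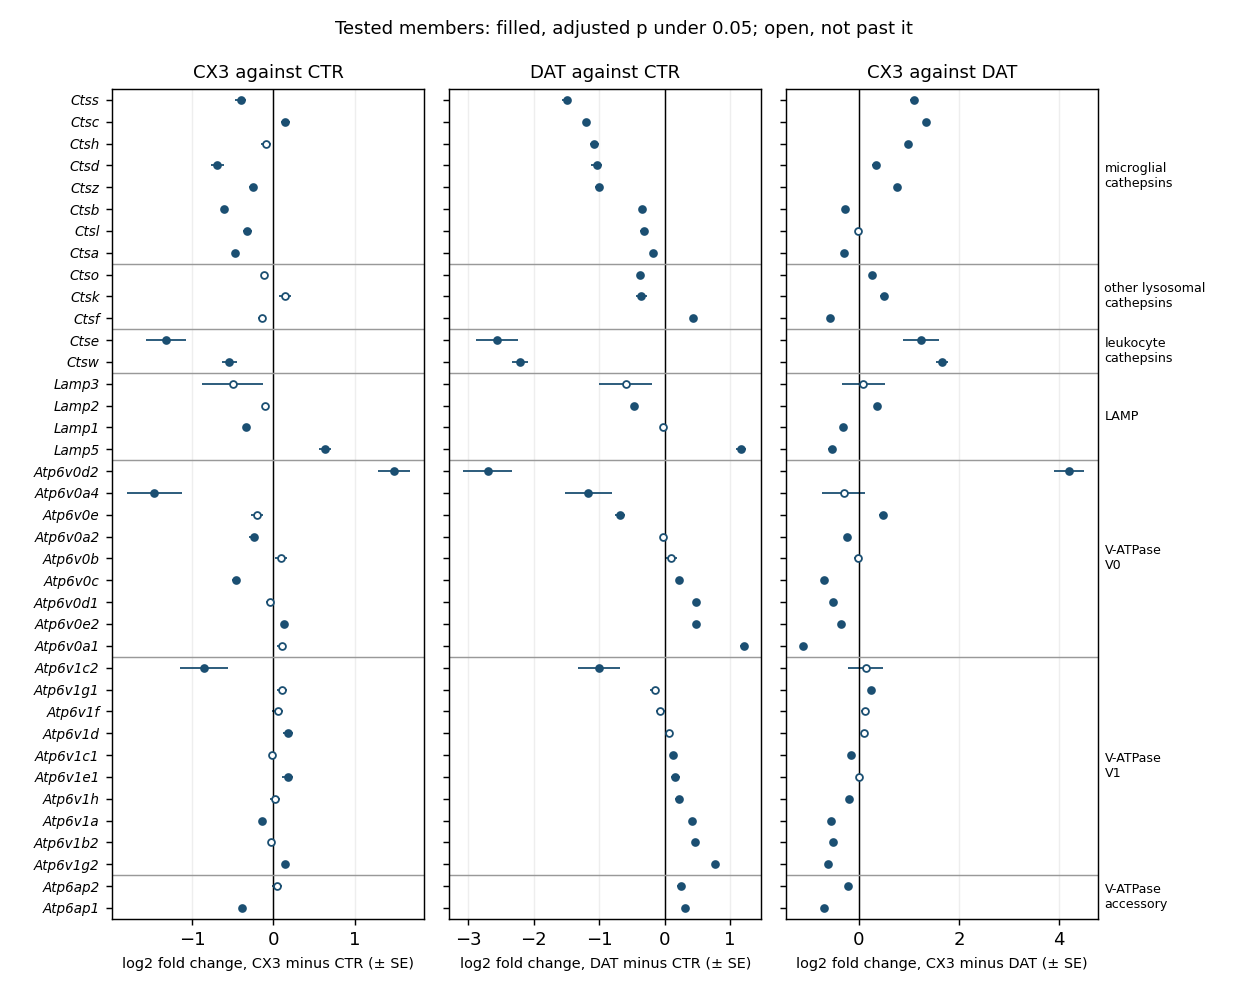
Log2 fold change with its standard error of the 38 tested genes in CX3 against CTR, DAT against CTR and CX3 against DAT, by group and ordered within a group by the value for DAT against CTR, with filled points past an adjusted p of 0.05 and a separate horizontal scale in each panel. The microglial cathepsins lie left of 0 in DAT against CTR, and the V-ATPase subunits lie on both sides in each panel.

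The V-ATPase subunits moved in both directions against CTR, and more of them were higher than lower in DAT. Of the 19 tested subunit genes, Atp6v0a4 passed the filter on low counts through the CTR libraries alone, which fixed its direction, and the counts that follow leave it out. In DAT against CTR 10 of the other 18 were higher (32% of all genes) and 3 lower (27.9% of all genes), and beyond a fold of 1.2 6 were higher (20.5% of all genes) and 3 lower (18.9% of all genes). The 3 lower were Atp6v0e and, at low levels, Atp6v0d2 (mean 0.601 CPM in CTR and 0.0902 in DAT) and Atp6v1c2 (0.94 and 0.441). In CX3 against CTR 5 were higher (14% of all genes) and 4 lower (16.5% of all genes), and beyond a fold of 1.2 only Atp6v0d2 was higher (3.16% of all genes) and only Atp6v0c lower (5.28% of all genes). Atp6v0d2 had a mean of only 1.69 CPM in CX3. The median log2 fold changes of the 18 genes were 0.15 in DAT and 0.04 in CX3, beside medians over all genes near 0. CX3 against DAT gave 3 higher (27.6% of all genes) and 10 lower (31.3% of all genes). With Atp6v0a4 included, 4 were lower in DAT and 5 in CX3, and the alternatives below are counted that way. Without CX3 A and DAT B these splits were 10 higher and 6 lower in DAT, 6 and 5 in CX3, and 6 and 10 in CX3 against DAT. That fit called 66% of all genes in DAT against CTR, 42.7% in CX3 against CTR and 62.9% in CX3 against DAT. The main fit called 59.9%, 30.5% and 58.9%. The split in DAT depended on the scaling, with 6 higher and 7 lower both with scaling by library size alone and when protein-coding genes alone entered the fit, where Atp6v0c, Atp6v1e1 and Atp6v1h lost their calls, as did Atp6v1c1, whose difference turned to -0.01 with scaling by library size alone. Those fits called 61.9% and 65.7% of their genes in DAT against CTR, and 37.8% and 48.2% of these calls were higher. In the main fit 53.4% of the calls were higher. The summed level of the 22 subunit genes was 3413 to 3480 CPM in CTR, 3368 to 3499 in CX3 and 4380 to 4594 in DAT.

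Within the V0 sector, Atp6v0a1 showed the largest difference among subunits of high level. It encodes the a1 subunit, the form of the proton channel's large subunit found on synaptic vesicles (ENSMUSG00000019302.16, chromosome 11 from 101009452 to 101063719), and had 193, 193 and 195 CPM in the CTR libraries, 205, 209 and 209 in the CX3 libraries and 472, 406 and 465 in the DAT libraries. It was 2.31-fold higher in DAT than in CTR (1.21 ± 0.05, edgeR adjusted p = 1.88e-10), and CX3 against CTR was not called (0.10 ± 0.05). Its counterpart Atp6v0a2, known from the Golgi and endosomes, had 78.6, 84.5 and 81.3 CPM in the CTR libraries, 64.9, 70.9 and 71.1 in the CX3 libraries and 85.2, 76.5 and 79.5 in the DAT libraries. This gene was lower in CX3 than in CTR (-0.24 ± 0.06), and DAT and CTR overlapped. It shares 9.86% of its exon bases with 4930404A12Rik on the opposite strand. Atp6v0c, which encodes the c subunit of the rotating ring, had 307, 310.4 and 298 CPM in the CTR libraries, 227, 218 and 219 in the CX3 libraries and 356, 374 and 337 in the DAT libraries. CX3 lay below CTR (-0.46 ± 0.04, edgeR adjusted p = 3.58e-06) and below DAT (-0.68 ± 0.04), and its count is uncertain because the annotation holds pseudogene copies, Atp6v0c-ps1 and Atp6v0c-ps2, with which it may share reads. Atp6v0d1, the widely expressed d subunit whose promoter is shown above, had 146, 144 and 142 CPM in the CTR libraries, 145, 142 and 134 in the CX3 libraries and 198, 213 and 193 in the DAT libraries. It was higher in DAT than in CTR (0.48 ± 0.05), and CX3 against CTR was not called (-0.04 ± 0.05). Atp6v0b, another subunit of the rotating ring, had 126, 123 and 118 CPM in the CTR libraries, 141, 128 and 122 in the CX3 libraries and 117, 151 and 127 in the DAT libraries. No comparison called it, and it shares 11.8% of its exon bases with Gm12841 on the opposite strand.

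Atp6v0d2, the d subunit form known from osteoclasts and macrophages (ENSMUSG00000028238.6, chromosome 4 from 19876841 to 19922605), was highest in CX3 and lowest in DAT. It had 17, 21 and 20 counts in the CTR libraries, 65, 64 and 59 in the CX3 libraries and 3, 2 and 2 in the DAT libraries. The 3 groups did not overlap. The summed counts, scaled by library, gave a CX3 level 2.81-fold that of CTR (95% interval 2.09 to 3.85) and 19.1-fold that of DAT (9.07 to 48), intervals that cover counting error only, and both differences were called (edgeR adjusted p = 6.36e-05 and 3.51e-08). Per kilobase of exon its mean level in CX3 was 0.623 CPM, against 78.2 for Atp6v0d1. Atp6v0a4, the a4 form of kidney, had 19, 28 and 14 counts in CTR, 6, 9 and 10 in CX3 and 11, 7 and 4 in DAT.

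The V1 sector holds the catalytic subunits. Atp6v1a, the catalytic A subunit, had 458, 448 and 458 CPM in the CTR libraries, 401, 417 and 421 in the CX3 libraries and 599, 604 and 612 in the DAT libraries. DAT lay above CTR (0.41 ± 0.04, edgeR adjusted p = 2.74e-07) and CX3 slightly below it (-0.14 ± 0.04). Atp6v1b2, the B subunit form of brain, had 534, 536 and 525 CPM in the CTR libraries, 526, 520.3 and 513 in the CX3 libraries and 743, 739.8 and 728 in the DAT libraries. It was 1.39-fold higher in DAT than in CTR and not called in CX3. Atp6v1g2, the neuronal form of the stalk subunit G (ENSMUSG00000024403.16, chromosome 17 from 35233660 to 35238767), had 187, 188 and 190.3 CPM in the CTR libraries, 217, 202 and 207 in the CX3 libraries and 323, 319 and 319 in the DAT libraries. It showed the largest rise in DAT among V1 genes (0.77 ± 0.04, edgeR adjusted p = 1.32e-09), and its smaller difference in CX3 (0.15 ± 0.04) was called as well. The widely expressed form Atp6v1g1 had 118, 114 and 115 CPM in the CTR libraries, 130.5, 122 and 121 in the CX3 libraries and 95.6, 118 and 100 in the DAT libraries. It was not called against CTR in either group and was higher in CX3 than in DAT (0.26 ± 0.07).

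Atp6v1d and Atp6v1e1, subunits of the central and peripheral stalks, were called higher in CX3 by small amounts. Atp6v1d had 220.3, 217 and 211 CPM in the CTR libraries, 253, 245 and 239 in the CX3 libraries and 211, 253 and 216 in the DAT libraries. Atp6v1e1 had 308, 299 and 286 CPM in the CTR libraries, 351, 336 and 319.8 in the CX3 libraries and 311, 372 and 319.9 in the DAT libraries. The calls in CX3 (log2 fold changes 0.18 and 0.17, edgeR adjusted p = 0.0322 and 0.0486) were lost for both genes when CTR A, CTR B, CTR C, CX3 A or CX3 B was left out. The number of subunits called higher in CX3 went from 5 to 1 without CTR A, CTR B or CX3 A, to 2 without CTR C or CX3 B and to 7 without DAT B. Calls over all genes moved too. In CX3 against CTR they went from 30.5% of genes to 21.8 to 26.8% without 1 of these CTR or CX3 libraries. Without DAT B they went to 39.6%. Atp6v1c1, Atp6v1h and Atp6v1f differed between groups by at most 0.22 on the log2 scale, the value of Atp6v1h in DAT against CTR. Atp6v1c2, a form of the C subunit known from kidney and epithelia, had 0.92, 1.1 and 0.8 CPM in the CTR libraries, 0.39, 0.635 and 0.547 in the CX3 libraries and 0.658, 0.402 and 0.263 in the DAT libraries, and was lower in CX3 (-0.85 ± 0.29) and DAT (-0.999 ± 0.32) than in CTR.

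**Figure D4:**
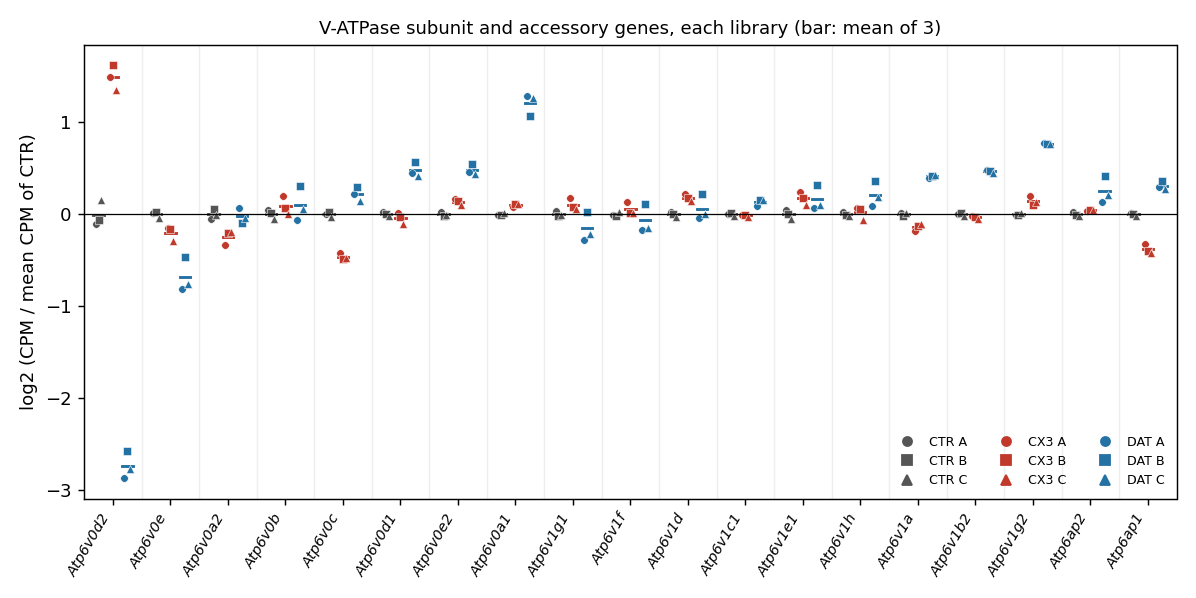
Level of 17 V-ATPase subunit genes and the 2 accessory genes in each library, as the log2 ratio of CPM to the mean of the CTR libraries (bar, mean of 3), without Atp6v0a4 and Atp6v1c2, which had low counts. Atp6v0a1 and Atp6v1g2 lie above 0 in all DAT libraries, Atp6v0d2 lies above 0 in all CX3 and below 0 in all DAT libraries, and DAT B lies apart from DAT A and DAT C in several genes.

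Subunits with a neuronal and a widely expressed form allow a comparison within each library, which does not depend on scaling. These pairs were chosen after their values were seen. Atp6v0a1 made up 70.1 to 71.6% of the summed level per kilobase of Atp6v0a1 and Atp6v0a2 in CTR, 75.1 to 76.4% in CX3 and 84.5 to 85.7% in DAT. Atp6v1g2 made up 41.6 to 42.8% of the pair with Atp6v1g1 in CTR, 42.7 to 43.6% in CX3 and 55 to 60.4% in DAT. Atp6v0e2, the brain form of the small e subunit, made up 86.2 to 86.9% of the pair with Atp6v0e in CTR, 88.8 to 89.4% in CX3 and 92.8 to 94% in DAT. In all 3 pairs the DAT libraries held the highest share of the neuronal form, and the CX3 and CTR shares of Atp6v1g2 overlapped. Atp6v0e had 52.7, 53.04 and 50.6 CPM in the CTR libraries, 47.02, 46.6 and 42.7 in the CX3 libraries and 29.8, 37.9 and 30.7 in the DAT libraries, and it was lower in DAT than in CTR (-0.68 ± 0.08) while Atp6v0e2, with 220.0, 212 and 215 CPM in the CTR libraries, 242, 238 and 232 in the CX3 libraries and 298, 315 and 292 in the DAT libraries, was higher (0.48 ± 0.04). Neuron markers (10 genes, Rbfox3 and Snap25 among them) summed to 4423 to 4430 CPM in CTR, 4852 to 4869 in CX3 and 6693 to 6957 in DAT, with 9 of 10 called higher in DAT (32% of all genes) and 5 of 10 in CX3 (14% of all genes) against CTR. In CX3 1 of the 10 was lower (16.5% of all genes) and 4 were not called. The median log2 fold change was 0.09 in CX3 and 0.46 in DAT. Markers of cerebellar granule cells were also higher in DAT (5 of 5 tested of 6 listed, where 32% of all genes were higher). Their log2 fold changes ran from 0.31 to 4.62, the value of Fat2, with a median of 1.23. In CX3 against CTR 2 of the 5 were higher and 2 lower (14% and 16.5% of all genes). The part of more neuronal RNA, or of RNA from another region, in the subunit levels was not tested.

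The accessory genes differed as well. Atp6ap1, which assists assembly of the pump (ENSMUSG00000019087.13, chromosome X from 74297097 to 74304721), had 314, 311 and 308 CPM in the CTR libraries, 249, 235 and 232 in the CX3 libraries and 382, 399 and 377 in the DAT libraries. It was lower in CX3 than in CTR (-0.38 ± 0.04, edgeR adjusted p = 1.15e-05) and higher in DAT (0.31 ± 0.04, edgeR adjusted p = 1.66e-05), so that CX3 lay 1.62-fold below DAT. Atp6ap2, the renin receptor, had 269.5, 263 and 262 CPM in the CTR libraries, 272, 273 and 274 in the CX3 libraries and 291, 354 and 306 in the DAT libraries. It was called higher in DAT (0.26 ± 0.06) but not with scaling by library size alone (0.11) or with protein-coding genes alone (0.14, edgeR adjusted p = 0.0628). DAT B was the highest library, and without it the value was 0.17, still called.

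Genes of the same organelle outside the set were counted by list. Of 31 hydrolases and their activators, 19 were lower in CX3 than in CTR and none higher (16.5% and 14% of all genes), with a median log2 fold change of -0.22, and 9 were lower beyond a fold of 1.2 (5.28% of all genes). Tpp1, a peptidase mutated in a neuronal ceroid lipofuscinosis, had 118, 116 and 116 CPM in the CTR libraries, 68.7, 71.1 and 71.98 in the CX3 libraries and 88.4, 81.4 and 83.95 in the DAT libraries. It fell in both groups (-0.72 in CX3 and -0.46 in DAT), and Glb1, lysosomal beta-galactosidase, fell in CX3 (-0.61) and rose slightly in DAT (0.15, edgeR adjusted p = 0.0306). In DAT against CTR 10 of the 31 were higher and 14 lower (32% and 27.9% of all genes), so that the share of higher genes was that of all genes. Gaa, acid alpha-glucosidase, had 284, 286 and 272 CPM in the CTR libraries, 174, 181 and 179.7 in the CX3 libraries and 765, 726 and 739.6 in the DAT libraries. It was lower in CX3 (-0.66 ± 0.04) and higher in DAT (1.41 ± 0.04), which left it 4.17-fold lower in CX3 than in DAT. Sgsh was also higher in DAT (0.74), and in CX3 against DAT Arsb (-1.14) and Psap (-0.90) were lower.

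Of 20 genes of the lysosomal membrane and of sorting, 13 were lower and 1 higher in CX3 than in CTR (16.5% and 14% of all genes), and 9 were higher and 7 lower in DAT (32% and 27.9% of all genes). Cd68, the macrophage member of the LAMP family by structure, had 38.1, 37.7 and 40.1 CPM in the CTR libraries, 21.9, 20.7 and 23.7 in the CX3 libraries and 11.5, 11.2 and 12.5 in the DAT libraries. It was the gene of the list with the largest fall in both groups (-0.81 in CX3 and -1.72 in DAT), and Cd63 was lower in both as well (-0.49 and -0.62). Npc1, the cholesterol transporter, fell in CX3 (-0.71) and rose in DAT (0.45), and Igf2r, a sorting receptor for mannose 6-phosphate, did likewise (-0.47 and 0.97). Among 7 cathepsin inhibitors, 4 of which were tested, Cst3, cystatin C, was lower in CX3 (-0.51) and DAT (-0.69). Cst7, cystatin F of leukocytes and reactive microglia, had 25.6, 27.3 and 27.8 CPM in the CTR libraries, 27.9, 28.6 and 28.1 in the CX3 libraries and 3.84, 5.13 and 3.38 in the DAT libraries. CX3 and CTR lay close together (0.07 ± 0.07, not called) and DAT was 6.64-fold lower than CTR. Cstb was lower in DAT (-0.32), and the inhibitor gene Stfa2 was at 0 in all 9 libraries.

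**Figure D5:**
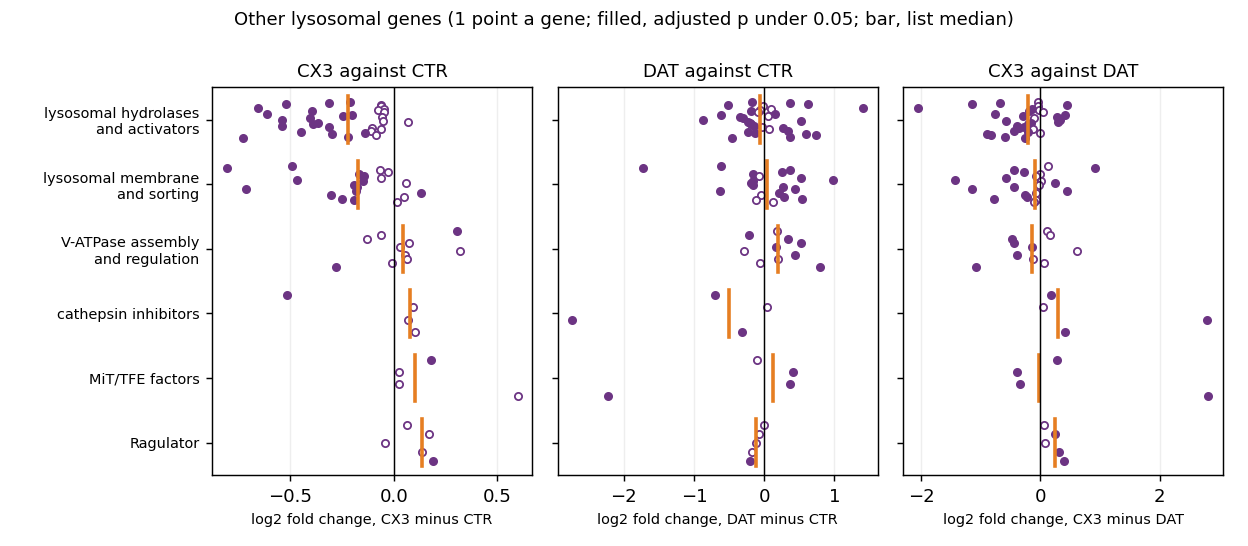
Log2 fold change of each tested gene in 6 lists of other lysosomal genes in the 3 comparisons, with filled points past an adjusted p of 0.05, a bar at the list median and a separate horizontal scale in each panel. Hydrolases and membrane genes lie mostly left of 0 in CX3 against CTR and on both sides of 0 in DAT against CTR.

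Of 10 genes for assembly and regulation of the V-ATPase, 1 was higher (Ccdc115, 0.30) and 1 lower (Wdr7, -0.28) in CX3, near the 14% and 16.5% of all genes, and 5 were higher and 1 lower in DAT, where 32% and 27.9% of all genes were. Wdr7, of the rabconnectin complex that serves the pump in neurons, had 104, 108 and 105 CPM in the CTR libraries, 81.6, 89.96 and 91.1 in the CX3 libraries and 194, 164 and 195 in the DAT libraries. It rose in DAT (0.80 ± 0.07), as did Ncoa7 (0.53) and Rogdi (0.44). Of the 4 MiT/TFE factors, Tfeb and Tfe3 were higher in DAT (0.36 ± 0.08 and 0.42 ± 0.06, where 32% of all genes were higher). They were not called in CX3 (0.03 ± 0.08 and 0.03 ± 0.06), and Mitf was called higher in CX3 (0.18 ± 0.06, where 14% of all genes were higher). Tfec, the macrophage form, had 12, 18 and 17 counts in CTR, 18, 28 and 36 in CX3 and 4, 0 and 4 in DAT. CX3 against CTR was not called, and the DAT libraries held the fewest counts. Of the 5 Ragulator genes, which anchor mTORC1 signalling to the lysosome, Lamtor5 was called higher in CX3 (0.19) and lower in DAT (-0.21), and the 4 others were not called in either. Over all genes, 14% were higher in CX3 and 27.9% lower in DAT.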

How the data were processed

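RNA from nigral tissue of 9 samples, 3 in each of the CTR, CX3 and DAT groups as the labels name them, was made into stranded mRNA libraries and sequenced in 76-base reads. Per the labels and the study's methods, the authors trimmed reads with Trimmomatic and aligned them to mm10 with STAR. The methods name featureCounts and DESeq2, while the deposited tables have the layout of STAR's gene counts, and versions are not given in the sources used here. The deposited values are raw read counts per gene, with replicates kept apart. The column of counts over both strands was used. Although the kit is stranded, the reverse strand held 49.8 to 49.9% of the stranded counts, so reads of a gene and an overlapping antisense gene cannot be told apart. The 4 rows of unassigned reads (30.5 to 35.9% of reads) were left out.

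Gene symbols, types and coordinates were taken from GENCODE M21 on GRCm38, which held all 55450 gene IDs. The genes described, the gene lists and the tests were chosen with earlier results of these data known. Counts were filtered with filterByExpr, scaled by TMM and tested with edgeR 4.0.16 (quasi-likelihood F test, group as the only factor, all 9 libraries in 1 fit) in R 4.3.3, with Benjamini-Hochberg adjustment over 20892 genes and calls at an adjusted p under 0.05. The edgeR function glmTreat tested against a fold of 1.2. The scripts were tested on simulated data. Values per library were given, by rule, for the called genes with the largest absolute log2 fold changes in each group of genes (up to 4 per comparison) and for Ctsb, Ctsd, Ctss, Lamp1 and Lamp2, and further genes were added after their values were seen. For genes with a summed count under 30 in a group, ratios of summed counts with exact 95% intervals were given for Ctse and Atp6v0d2. Promoter windows came from RefSeq on GRCm38.p6.

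Alternatives were DESeq2 size factors, library size alone, the DESeq2 1.42.0 Wald test, 2 other filters on low counts, protein-coding genes alone, the counts of either strand, only the 2 groups compared, the library letter as a block, and leaving out each library in turn.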

Additional observations from a re-analysis of the deposited data

How the results depend on the processing

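The counts of microglial cathepsins lower in each Synuclein group than in CTR did not change, staying at 6 of 8 in CX3 and at 8 of 8 in DAT with any 1 library left out, and the number higher in CX3 than in CTR ranged from 0 to 1. The V-ATPase counts were less stable. With 1 library left out, the number of subunits higher in CX3 than in CTR ranged from 1 to 7 and the number lower in DAT than in CTR from 2 (without CTR B) to 6. The number higher in CX3 than in DAT ranged from 3 to 6 (without DAT B). Over all genes, the share called in these fits ranged from 21.8% (without CTR C) to 39.6% (without DAT B) in CX3 against CTR. It ranged from 53.1% to 61.7% in DAT against CTR and from 52.8% to 61.1% in CX3 against DAT. Scaling by library size alone gave 6 subunits higher and 7 lower in DAT than in CTR, 6 subunits higher in CX3 than in DAT, and 1 microglial cathepsin lower in CX3 than in DAT. Over all genes it called 61.9% in DAT against CTR (37.8% of them higher) and 63.9% in CX3 against DAT (66.7% of them higher). Among called values it turned the sign for Atp6v1c1 (-0.013 in DAT against CTR and 0.047 in CX3 against DAT), Atp6v1h (0.0039 in CX3 against DAT) and, with a call gained, Ctsl (0.19 in CX3 against DAT). With no call either way it also turned Atp6v0b (-0.043 in DAT against CTR and 0.18 in CX3 against DAT), Atp6v1d (-0.081 in DAT against CTR) and, in CX3 against CTR, Atp6v0d1 (0.007), Atp6v1b2 (0.014) and Atp6v1c1 (0.035). Ctsl in CX3 against DAT ranged from -0.039 (without DAT A) to 0.089 (without DAT B) with 1 library left out, and it was 0.07 without both CX3 A and DAT B, a setting chosen after seeing the data that gave 6 subunits higher in CX3 than in DAT. Against a fold of 1.2, glmTreat called 1763 genes in CX3 against CTR, 8228 in DAT against CTR and 7989 in CX3 against DAT, where the test against no change called 6367, 12520 and 12311. It left 3 microglial cathepsins lower and 1 subunit higher and 2 lower in CX3 than in CTR, 6 subunits higher in DAT than in CTR, and 0 microglial cathepsins lower in CX3 than in DAT. Protein-coding genes alone gave 6 subunits higher and 7 lower in DAT than in CTR and 5 higher in CX3 than in DAT. Of its genes, that fit called 65.7% in DAT against CTR (48.2% of them higher) and 67.1% in CX3 against DAT (51.9% of them higher). A minimum of 1 count in any library gave 5 higher in CX3 than in DAT, where that fit called 28.3% of its genes (52.3% of them higher). A minimum of 10 counts in every library gave 2 lower in DAT than in CTR, where that fit called 63% of its genes (52.5% of them higher). That filter leaves out Atp6v0a4, Atp6v0d2 and Atp6v1c2, which were called lower in DAT in the main fit. They had as few as 4, 2 and 6 counts in a DAT library. Counts of the reverse strand gave 3 subunits higher in CX3 than in CTR and 5 higher in CX3 than in DAT, and counts of the forward strand 3 lower in CX3 than in CTR, 6 higher in DAT than in CTR and 5 higher in CX3 than in DAT. Over all genes, the reverse strand called 26% in CX3 against CTR (46.3% of them higher) and 56.1% in CX3 against DAT (50% higher). The forward strand called 25.8% in CX3 against CTR (46.4% higher), 56% in DAT against CTR (51.2% higher) and 56.1% in CX3 against DAT (49.7% higher). Apart from the genes left out by the filter of 10 counts, the cause of these changes was not tested. The library letters did not pair the samples (correlations of same-letter deviations from -0.322 to 0.119). Between different letters they ran from -0.283 to 0.34, the value of CX3 A with DAT B. A fit with the letter as a block called 5805, 12144 and 11955 genes. Over single genes, 2092 of 2372 alternative values kept direction and call, 136 lost and 81 gained a call, 6 changed sign with a call in one of the fits, and 57 changed sign with no call. Genes with few counts, such as Atp6v0d2 in DAT (7 counts in all), are limited by depth.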
